A study of Homo sapiens with 12 samples.

Results

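The subject here is the response to tumour necrosis factor (TNF) of K562 cells that had been transfected against a long non-coding RNA (lncRNA), read as the group labelled TNFSG against the group labelled SG. K562 is a chronic myeloid leukaemia cell line of erythroleukaemic character, and the series title names the lncRNA as PPTG1-1:1. Members were the loci with a gene name whose mean over the 6 SG and TNFSG libraries was at least 5 FPKM (fragments relative to locus length and to the number mapped in each library). The rule gave 12960 members of 38272 loci in the table, of which 29237 had a name. The member nearest above the minimum, CROCCP3, averaged 5.00003 FPKM, and the nearest locus below it, AC133528.2, averaged 4.99989 FPKM. Because the rule is a mean over both groups, it also took loci that reached 5 FPKM in only 1 of them: 564 members averaged under 5 FPKM in SG and 572 did so in TNFSG. The 81 members that did not enter the test are among these counts, 19 of them under 5 FPKM in SG and 55 under 5 FPKM in TNFSG.

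Both groups received the transfection that the protocol calls Si623/Gap01, read here as an siRNA together with a GapmeR, an antisense oligonucleotide that recruits RNase H to its target RNA. SG had no further treatment, and TNFSG then received TNF at 20 ng/mL for 6 hours. The mock transfection (SiCt+GapCt) gave the groups labelled control, without TNF, and TNF, with the same dose and time, and these serve only to compare the response. Each group had 3 libraries of total RNA sequenced in single reads of 50 bases.

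TNF binds TNFR1 and TNFR2 at the cell surface, and the receptor complex activates the IKK kinases through adaptor and ubiquitin ligase proteins. IKK phosphorylates IkB proteins, which are then degraded, and NF-kB dimers enter the nucleus and bind kB sites in promoters and enhancers. Among the genes that NF-kB turns on are its own inhibitors, chemokines, adhesion molecules and survival factors, so that the pathway feeds back on itself.

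Promoter sequences are shown for the members with the largest rises whose upstream window holds a kB motif, because the named rises below include the genes of these windows. They are from RefSeq (GRCh38.p14), read 5′ to 3′ on the gene's strand, and end before the transcription start. Capitals mark matches to GGNNNTTCC, a short form of the kB site searched on both strands.
LTB (chr6:31582483-31582531, minus strand): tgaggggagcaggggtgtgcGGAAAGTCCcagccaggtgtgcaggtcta
CXCL1 (chr4:73869295-73869368, plus strand): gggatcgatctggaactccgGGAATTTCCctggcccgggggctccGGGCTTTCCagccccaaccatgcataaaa
CXCL10 (chr4:76023579-76023693, minus strand): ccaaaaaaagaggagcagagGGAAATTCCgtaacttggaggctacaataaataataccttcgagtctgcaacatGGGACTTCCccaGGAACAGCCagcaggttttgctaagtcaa
ICAM1 (chr19:10270914-10270962, plus strand): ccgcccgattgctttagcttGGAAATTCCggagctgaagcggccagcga
CXCL11 (chr4:76036117-76036165, minus strand): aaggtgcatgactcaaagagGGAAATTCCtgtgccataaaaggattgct
The match began 86 bases upstream of the start in LTB, 186 in ICAM1 and 75 in CXCL11, at 78 and 53 bases in CXCL1, and at 176, 122 and 110 bases in CXCL10. IL1A, CD83 and SLC2A6, whose rises were of similar size, held no such letters in their window of 250 bases before to 50 after the start. Over all symbols with a window in the table, the motif was found in 78 of 205 members that rose (38.0%), in 8 of 46 that fell (17.4%), in 1597 of 7056 members not called (22.6%) and in 5498 of 27305 windows of any gene (20.1%). The AP-1 letters TGANTCA were found in 7.80% of windows of members that rose, 0 of 46 that fell and 4.44% of those not called, against 7.76% of all windows. The GC box GGGCGG stood in 70.2%, 73.9% and 70.2% of the same sets and in 44.6% of all windows, and its bases may overlap a kB match. A match is a description of the letters and was not tested as a binding site.

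Total reads were not in the file. The depths of the 12 libraries, estimated from whole-read steps in low values, lay between 0.984 and 1.505 relative to SG replicate 1, with TNFSG replicate 1 the deepest. Over the 11262 tested members not marked as resting on few reads, libraries of the same group correlated at 0.908 to 0.932 (Pearson, log2 scale, a description), and SG with TNFSG libraries at 0.874 to 0.910. For the K562 label, 14 erythroid marker genes were looked up. Of these, 13 had a named locus and 12 were members, none passed limma's test between groups (4 were lower at an unadjusted p under 0.05), and their summed level was 1541 to 1826 FPKM in SG and 1442 to 1759 FPKM in TNFSG. The markers were uneven: HBG1 stood at 0.48 to 1.82 FPKM over the 6 libraries, and HBG2 rested on few reads. Both are values of a locus with 1 name. Loci with several names were left out, so these values do not give the whole level of either gene. The epithelial marker KRT19 stood at 100.2 to 151.3 FPKM. Neither the sum nor the test decides the identity of the cells. Fewer loci were found for markers of lymphoid cells (4 of 10), monocytes and granulocytes (3 of 10), fibroblasts (3 of 8), epithelium (5 of 7) and endothelium (3 of 7), and of these 18 loci 16 entered the test, 8 of them members; limma called none of the 16, with 0 at an unadjusted p under 0.05. None of the markers found was at 0 in all 6 libraries. The summed fibroblast markers were 21.3 to 45.3 FPKM in SG and 65.2 to 443.8 FPKM in TNFSG, the highest from COL1A2 at 406.3 FPKM in TNFSG replicate 2 alone, and the epithelial sum was 222.1 to 280.3 and 271.2 to 929.5 FPKM. Their part in the results was not tested. The lncRNA's name in the title points to the neighbourhood of PTTG1, and the locus named MIR146A was taken as the check of the labels; that it holds the targeted transcript was not tested. It averaged below the member minimum and stood at 0, 0.0566 and 0.0630 FPKM in SG and 7.77, 4.51 and 4.03 FPKM in TNFSG, against 0.360, 0.569 and 0.159 FPKM in control and 28.1, 25.6 and 21.2 FPKM in TNF. Its TNF change was 2.59 ± 0.22 in the targeted transfection and 4.25 ± 0.22 in the mock transfection, and the difference of the changes, -1.67 ± 0.31, had an adjusted p of 0.470 (limma). With SG values near 0 this difference depends on the scale: it was -0.57 with a pseudocount of 0.1, and the ratio of mean FPKM was 136.4 in the targeted and 68.8 in the mock transfection.

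More members rose than fell with TNF in the targeted cells. Of 12879 members tested, 304 rose and 80 fell at an adjusted p under 0.05 in limma, with p-values adjusted by Benjamini-Hochberg across the 32866 loci of the whole table that entered the test. That is 2.36% and 0.621% of the members, where 1.37% of all loci rose and 0.277% fell. In each of the 304 and 80, the SG and TNFSG values did not overlap. Non-overlap alone was common: of the 12879 members tested, 1282 lay wholly higher in TNFSG and 1899 wholly lower. Changes are given as differences of log2(FPKM + 1) between the means of 3 libraries a group, with the standard error (SE) from the model, and understate the fold of weakly expressed genes. Rises were also larger: 150 reached 1 on this scale, 60 reached 2 and 29 reached 3, with a median of 0.98, whereas 6 falls reached -1 and the median fall was -0.52. Over all tested members the median change was -0.04, and 5403 had a higher mean in TNFSG. In bulk RNA a gene's level in every cell cannot be told apart from the share of cells that express it.

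A call that also passed in each of 6 fits leaving out 1 SG or TNFSG library is said below to have been kept; 179 rises and 22 falls were. Without TNFSG replicate 1 the rises numbered 199, and the falls dropped to between 33 and 45 without any 1 of the 6 libraries (SG replicates 36, 45 and 33, TNFSG replicates 34, 33 and 36). With only SG and TNFSG in the fit, 185 members rose and 20 fell.

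**Figure D1:**
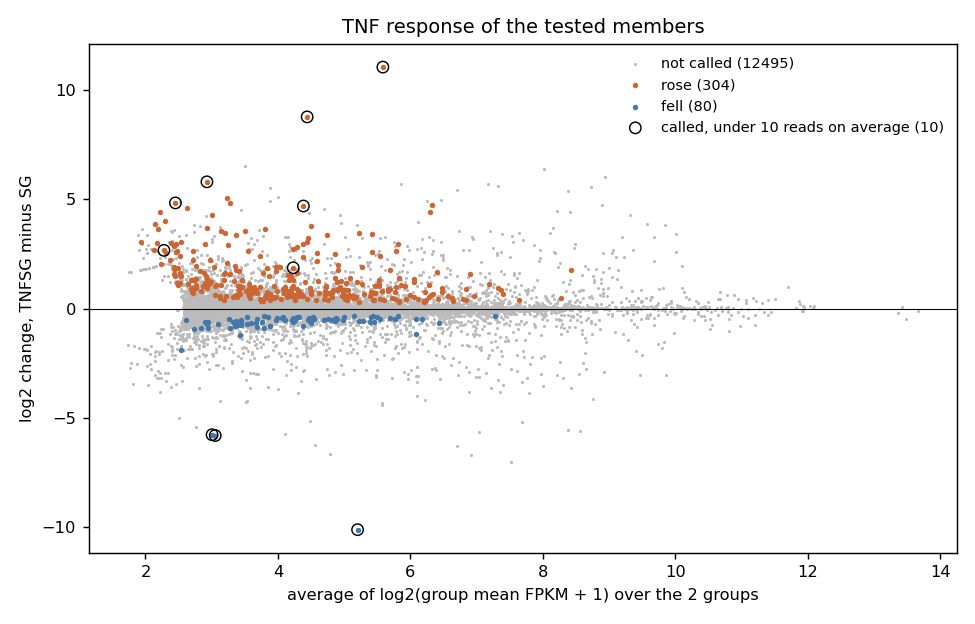
Change between SG and TNFSG for the 12879 tested members. The x axis is the average over both groups of log2(group mean FPKM + 1) and the y axis is the log2 change, TNFSG minus SG; orange points rose (304), blue points fell (80), grey points were not called, and rings mark 10 called members averaging under 10 recovered reads, which include the extremes of 11.05 and -10.10.

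The share of members that rose was tallied by the level in SG. Of 69 members that averaged under 1 FPKM in SG, 18 rose (26.1%), as did 69 of 476 at 1 to 5 FPKM (14.5%), 124 of 6035 at 5 to 20 FPKM (2.05%), 87 of 4790 at 20 to 100 FPKM (1.82%) and 6 of 1509 above 100 FPKM (0.398%). The member rule fixes part of this pattern, because a locus under 5 FPKM in SG entered only by being higher in TNFSG. Among members that averaged at least 5 FPKM in both groups, 217 rose and 72 fell. The rising members together held 0.652%, 0.640% and 0.566% of all FPKM in the 3 SG libraries and 1.91%, 1.63% and 1.55% in the TNFSG libraries, and 1.40% ± 0.05 (SD, n = 3) in TNFSG when 7 members with few reads were left out. Falling members held 0.229% ± 0.016 in SG and 0.159% ± 0.005 in TNFSG, without 3 members with few reads. Of the risers matched to GENCODE release 29, 253 of 259 symbols were protein coding (97.7%), against 91.6% of all tested members.

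Genes for the NF-kB subunits themselves rose, except for RELA. RELB, NFKB1, NFKB2 and REL, which with RELA make up the family of dimer-forming subunits, were all kept. RELB, the subunit of the non-canonical pathway, stood at 3.40, 3.64 and 1.86 FPKM in SG and 52.4, 44.98 and 47.3 FPKM in TNFSG. NFKB2, which encodes p100 and its product p52, stood at 7.93, 6.37 and 4.31 FPKM in SG and 72.4, 58.4 and 64.0 FPKM in TNFSG. Both genes were low in every SG library and lay far apart from the TNFSG values. RELB rose by 3.66 ± 0.21 (adjusted p 1.85e-05, limma) and NFKB2 by 3.22 ± 0.25 (adjusted p 1.51e-04, limma). NFKB1, the gene of p105 and p50, went from 11.8, 10.7 and 8.40 FPKM in SG to 52.8, 51.0 and 48.0 FPKM in TNFSG and rose by 2.1997 ± 0.13. REL, which encodes c-Rel, was lower throughout at 3.64, 4.47 and 3.08 FPKM in SG and 7.76, 8.92 and 7.37 FPKM in TNFSG and rose by 0.94 ± 0.13, a call lost with only SG and TNFSG in the fit (adjusted p 0.0908, limma). RELA, the gene of p65, was measured at 30.2, 27.3 and 27.4 FPKM in SG and 37.0, 34.3 and 34.2 FPKM in TNFSG. The groups did not overlap, but its change of 0.30 ± 0.07 had an adjusted p of 0.0979 (limma). In log2 change the order was RELB, NFKB2, NFKB1, REL and RELA; RELB and NFKB2 differed by less than the sum of their SEs, and the list's median was 2.1997 against -0.04 over all members.

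IkB genes, whose proteins hold NF-kB in the cytoplasm or modify it in the nucleus, behaved in the same direction. Of 7 listed, 5 were members on a locus of their own, 4 rose and the median change was 1.71. NFKBIA, the classical inhibitor resynthesised after its degradation, stood at 10.98, 13.7 and 11.4 FPKM in SG and 141.3, 139.9 and 134.8 FPKM in TNFSG and rose by 3.43 ± 0.10 (adjusted p 1.81e-07, limma). Its TNFSG values lay close together, far above any SG value. BCL3, a nuclear IkB protein that binds p50 and p52, stood at 3.02, 2.09 and 2.203 FPKM in SG and 26.3, 25.9 and 23.0 FPKM in TNFSG and rose by 2.93 ± 0.17. NFKBIZ, another nuclear member, stood at 5.34, 4.12 and 5.16 FPKM in SG and 17.7, 16.4 and 20.5 FPKM in TNFSG and rose by 1.71 ± 0.19. NFKBIB began at a higher level, 28.7, 33.1 and 33.3 FPKM in SG and 53.9, 53.2 and 55.8 FPKM in TNFSG, and rose by 0.76 ± 0.08. NFKBIL1 was not called at 10.99, 10.6 and 9.06 FPKM in SG and 11.8, 13.3 and 12.7 FPKM in TNFSG, with a change of 0.28 ± 0.14 and an adjusted p of 0.485 (limma). NFKBID averaged below the member minimum, at 2.09, 0.577 and 2.41 FPKM in SG and 1.79, 0.862 and 3.82 FPKM in TNFSG, and NFKBIE shares its locus with a second gene name and was only counted.

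**Figure D2:**
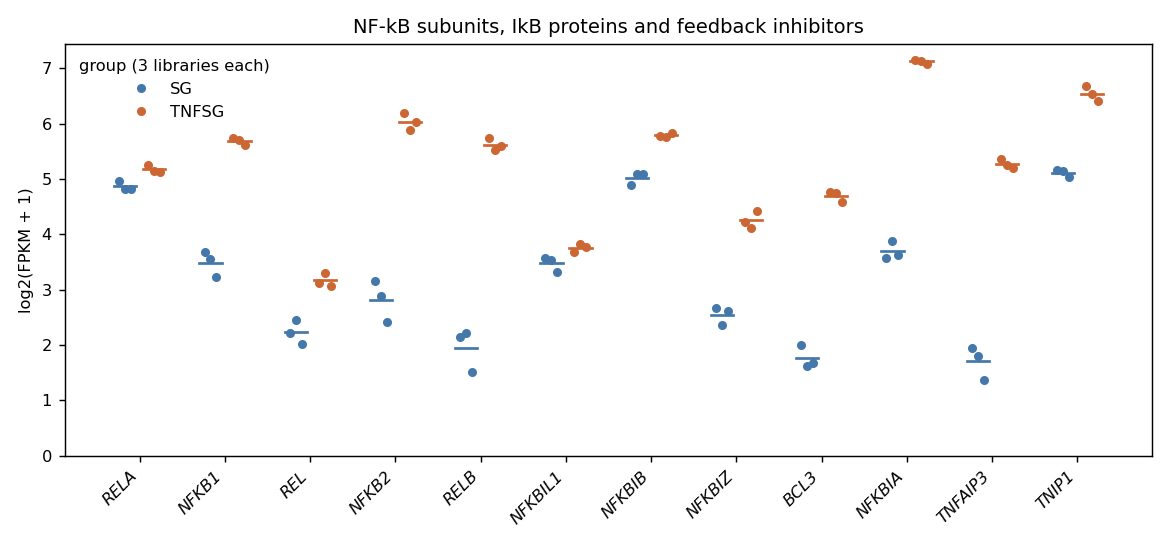
Level of NF-kB subunit, IkB and feedback inhibitor genes in each library. The y axis is log2(FPKM + 1), blue points are the 3 SG libraries, orange points the 3 TNFSG libraries, and bars are group means; the groups are separate in every gene shown, with NFKBIA, at 134.8 to 141.3 FPKM in TNFSG, at the top and RELA and NFKBIL1 showing the smallest steps.

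Upstream, 5 of the 22 listed receptor, adaptor and kinase members rose and none was called lower. The list's median change was 0.02, and its lowest, -3.29, was not called. At an unadjusted p under 0.05 (limma) 5 members were higher and 2 lower. BIRC3, a ubiquitin ligase of the TNFR1 complex, stood at 0.348, 0.436 and 0.202 FPKM in SG and 12.002, 8.99 and 9.05 FPKM in TNFSG and rose by 3.04 ± 0.20 (adjusted p 4.24e-05, limma). MAP3K8, the kinase TPL2 that signals to ERK, stood at 15.5, 15.8 and 14.8 FPKM in SG and 51.9, 53.8 and 57.8 FPKM in TNFSG and rose by 1.76 ± 0.08. Every TNFSG library was above 50 FPKM, and no SG library above 16. TRAF3, which restrains the non-canonical pathway, rose by 0.82 ± 0.10 from 7.28, 7.99 and 7.57 FPKM in SG to 14.2, 13.6 and 14.8 FPKM in TNFSG. IKBKB, the catalytic subunit IKK2, rose by 0.73 ± 0.11 from 22.6, 19.3 and 19.2 FPKM in SG to 40.3, 32.9 and 30.6 FPKM in TNFSG, a call lost with only SG and TNFSG in the fit (adjusted p 0.106, limma). BIRC2, the neighbour of BIRC3 on chromosome 11, was called (0.88 ± 0.18, adjusted p 0.0462, limma) but the call was lost in each of the 6 fits without a library. Among members not called, TAB3 changed by 0.01 ± 0.08 and FADD, the adaptor to caspase 8, by -0.13 ± 0.13.

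Feedback inhibitors rose in part, 5 of 13 members. TNFAIP3, which encodes the ubiquitin-editing enzyme A20, stood at 2.86, 2.51 and 1.59 FPKM in SG and 40.4, 37.4 and 35.8 FPKM in TNFSG and rose by 3.57 ± 0.15 (adjusted p 3.93e-06, limma). TNIP1, the A20-binding protein ABIN1, stood at 34.9, 34.5 and 31.9 FPKM in SG and 101.6, 92.0 and 83.8 FPKM in TNFSG and rose by 1.42 ± 0.09. Both were separate between the groups by a wide margin. ZC3H12A, the RNase Regnase-1 that degrades cytokine messengers, rose by 1.13 ± 0.13 from 4.12, 4.28 and 4.37 FPKM in SG to 9.86, 10.3 and 11.3 FPKM in TNFSG. SOCS1, an inhibitor of JAK kinases, rose by 0.70 ± 0.08 from 21.0, 21.8 and 18.8 FPKM in SG to 33.5, 35.7 and 32.8 FPKM in TNFSG. RNF11, part of the A20 complex, was called at 0.53 ± 0.09 but lost the call in 5 of the 6 fits. TAX1BP1, another A20 partner, changed by -0.04 ± 0.06 and TRAFD1 by 0.57 ± 0.15 (adjusted p 0.112, limma), neither called.

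Cytokines and chemokines were the list with the highest median, 2.80, and 14 of 18 members rose and none fell. The member rule fixes part of this count and median. Of the listed genes 27 had a locus, and those under 5 FPKM in SG became members only by being higher in TNFSG. The same limit applies to the other lists. They include the neutrophil-attracting chemokines CXCL1, CXCL2, CXCL3 and CXCL8, whose products bind the receptor CXCR2. CXCL1 stood at 1.08, 0.724 and 0.5999 FPKM in SG and 50.5, 42.7 and 59.0 FPKM in TNFSG and rose by 4.84 ± 0.15 (adjusted p 2.94e-07, limma). CXCL8, interleukin 8, was the most abundant of them at 11.3, 10.5 and 8.61 FPKM in SG and 124.2, 120.7 and 124.2 FPKM in TNFSG and rose by 3.48 ± 0.09. CXCL3 stood at 0.451, 1.09 and 1.43 FPKM in SG and 13.7, 15.7 and 13.1 FPKM in TNFSG and CXCL2 at 1.17, 1.17 and 0.780 FPKM in SG and 11.9, 10.3 and 11.1 FPKM in TNFSG. Their rises were 2.95 ± 0.18 and 2.57 ± 0.23. These messengers are alike in sequence, and reads of 50 bases may not be assigned to 1 copy in every case.

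The CXCR3 ligands CXCL10 and CXCL11, genes best known from the interferon response, began near 0. CXCL10 stood at 0.0873, 0.589 and 0.0703 FPKM in SG and 38.2, 26.8 and 24.0 FPKM in TNFSG and rose by 4.61 ± 0.22. CXCL11 stood at 0, 0 and 0.360 FPKM in SG and 27.0, 28.8 and 5.61 FPKM in TNFSG. TNFSG replicate 3 was the lowest of its group for both genes. CXCL11 rose by 3.99 ± 0.50, a call lost with only SG and TNFSG in the fit (adjusted p 0.0813, limma). LTB, the beta chain of the membrane lymphotoxin, stood at 1.23, 0.299 and 0.227 FPKM in SG and 90.6, 34.9 and 39.0 FPKM in TNFSG and rose by 5.06 ± 0.45 (adjusted p 3.49e-04, limma), the largest kept rise that did not rest on few reads. Its TNFSG replicate 1 was well above the others. IL1A, interleukin 1 alpha, was under 0.2 FPKM in every SG library and stood at 14.5, 15.1 and 18.0 FPKM in TNFSG, a rise of 3.86 ± 0.26. Further rises kept without any 1 library were those of EBI3, a subunit of interleukins 27 and 35 (2.99 ± 0.32), CCL2, a monocyte chemokine (2.64 ± 0.37), IL32 (2.56 ± 0.22), CSF1, the macrophage growth factor (1.62 ± 0.17), and TNFSF10, the death ligand TRAIL (1.59 ± 0.24). With only SG and TNFSG in the fit, the calls of CCL2 (adjusted p 0.0525, limma) and TNFSF10 (adjusted p 0.0688, limma) were lost. TGFB1 was not called at 0.34 ± 0.08 (adjusted p 0.0821, limma), and the noisy CX3CL1 ran from 0.374 to 233.1 FPKM within SG alone.

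Cell surface genes followed, with 11 of 19 members rising, none falling and a median of 1.03. ICAM1, the adhesion molecule bound by leukocyte integrins, stood at 18.0, 15.0 and 15.0 FPKM in SG and 400.3, 343.7 and 339.5 FPKM in TNFSG. It rose by 4.41 ± 0.09 and had the smallest adjusted p of any gene named here (2.37e-08, limma). CD83, a marker of activated dendritic cells, stood at 5.96, 4.79 and 4.48 FPKM in SG and 88.3, 86.7 and 74.8 FPKM in TNFSG and rose by 3.80 ± 0.11. The T cell costimulator TNFRSF9 (4-1BB) stood at 1.53, 2.49 and 1.36 FPKM in SG and 27.7, 30.9 and 29.1 FPKM in TNFSG and rose by 3.46 ± 0.19. SDC4, a heparan sulphate proteoglycan, rose by 2.96 ± 0.13 from 6.29, 6.61 and 6.44 FPKM in SG to 58.1, 58.7 and 53.7 FPKM in TNFSG. IFNGR2, a chain of the interferon gamma receptor, was already well expressed at 26.6, 26.0 and 28.6 FPKM in SG and 97.1, 91.6 and 95.3 FPKM in TNFSG and rose by 1.77 ± 0.08. Kept rises of TNFRSF4 (3.66 ± 0.34), CD69 (3.38 ± 0.35), CD40 (3.00 ± 0.42) and CD58 (0.91 ± 0.12) belong to the same list, while CD70 and CD80 lost their calls in 5 of the 6 fits, and CD58 lost it with only SG and TNFSG in the fit (adjusted p 0.0675, limma). ICAM4, a blood group antigen of red cells, changed by -0.09 ± 0.09 and ICAM2 by -0.44 ± 0.12, and neither was called.

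Other genes known as TNF targets had 16 rises in 33 members, with a median of 0.99. SLC2A6, a glucose transporter family member, stood at 1.59, 0.766 and 1.01 FPKM in SG and 30.2, 25.1 and 24.2 FPKM in TNFSG and rose by 3.71 ± 0.20. RRAD, a small GTPase of the RGK family, stood at 0.931, 1.49 and 0.134 FPKM in SG and 36.6, 38.1 and 27.4 FPKM in TNFSG and rose by 4.30 ± 0.34. NINJ1, a membrane protein needed for rupture of dying cells, stood at 7.16, 5.98 and 6.23 FPKM in SG and 63.8, 62.1 and 58.3 FPKM in TNFSG and rose by 3.07 ± 0.10 (adjusted p 5.74e-07, limma). PLAU, the protease urokinase, was low in every SG library. It stood at 1.91, 1.57 and 1.32 FPKM in SG and 29.7, 28.1 and 29.5 FPKM in TNFSG, a rise of 3.54 ± 0.22. B4GALT1, a galactosyltransferase, had a smaller but tight rise of 0.99 ± 0.07, from 17.2, 17.5 and 18.3 FPKM in SG to 37.1, 34.9 and 36.3 FPKM in TNFSG. KYNU and CCND1 were higher on average but spread widely, at 1.01 ± 0.35 (adjusted p 0.279, limma) and 0.66 ± 0.30 (adjusted p 0.450, limma).

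Among genes of apoptosis, both survival and death genes rose. BCL2L1, whose main product BCL-XL protects mitochondria, stood at 75.9, 57.2 and 69.1 FPKM in SG and 114.6, 109.3 and 122.0 FPKM in TNFSG and rose by 0.77 ± 0.11. PMAIP1 (NOXA) and BBC3 (PUMA), BH3-only proteins that oppose it, rose by 1.23 ± 0.06 and 0.99 ± 0.14, and PMAIP1 stood at 22.6, 23.7 and 22.6 FPKM in SG and 56.0, 55.4 and 54.5 FPKM in TNFSG. The BCL2 family had 4 rises in 10 members with a median of 0.53; BID lost its call in 4 of the 6 fits. With only SG and TNFSG in the fit, the calls of BCL2L1 (adjusted p 0.0759, limma) and BBC3 (adjusted p 0.0788, limma) were lost. In the list of death receptors and caspases only TNFRSF10B, a TRAIL receptor, rose (1.03 ± 0.15; 10.2, 8.41 and 10.8 FPKM in SG and 20.9, 20.4 and 21.5 FPKM in TNFSG), 1 of 11 members. CFLAR, the caspase 8 inhibitor cFLIP, was higher in each TNFSG library at 57.1, 92.4 and 70.3 FPKM in SG and 146.0, 116.4 and 125.8 FPKM in TNFSG, but its change of 0.83 ± 0.19 had an adjusted p of 0.0735 (limma). BAX, the pore-forming effector, changed by -0.03 ± 0.11, and CYCS, cytochrome c, by -0.01 ± 0.14, neither called.

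The interferon-related lists moved in part. IRF1, a transcription factor induced by NF-kB, stood at 7.31, 7.64 and 5.30 FPKM in SG and 20.5, 24.1 and 24.1 FPKM in TNFSG and rose by 1.64 ± 0.13, and IRF2 rose by 0.97 ± 0.10. Of 10 IRF and STAT members 3 rose and 1, STAT3, fell (-0.36 ± 0.07), but that call was lost in each of the 6 fits, and STAT5A lost its rise in 3. OAS3, a sensor of double-stranded RNA, stood at 1.61, 1.99 and 2.03 FPKM in SG and 10.5, 8.16 and 8.95 FPKM in TNFSG and rose by 1.82 ± 0.17. IFIT3 rose by 1.4984 ± 0.18 and DTX3L by 0.73 ± 0.10, the latter not with only SG and TNFSG in the fit (adjusted p 0.0564, limma). In all, 4 of 17 interferon-stimulated members rose, and the list's median was 0.48. MX1, with few reads, was not called at 185.9, 230.5 and 384.8 FPKM in SG and 88.2, 76.5 and 169.6 FPKM in TNFSG, and neither was ADAR at 0.43 ± 0.11.

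For antigen presentation, TAP1, a subunit of the peptide transporter, stood at 1.16, 1.46 and 1.01 FPKM in SG and 16.4, 11.3 and 11.4 FPKM in TNFSG and rose by 2.65 ± 0.22 (adjusted p 1.96e-04, limma). ERAP2, which trims peptides in the endoplasmic reticulum, stood at 4.10, 2.85 and 2.70 FPKM in SG and 11.3, 7.52 and 10.6 FPKM in TNFSG and rose by 1.36 ± 0.19, a call lost with only SG and TNFSG in the fit (adjusted p 0.0788, limma). B2M, the light chain of class I molecules, was called at 0.47 ± 0.07 from 251.3, 270.0 and 261.0 FPKM in SG to 346.8, 377.1 and 362.8 FPKM in TNFSG, but lost the call in 4 of the 6 fits. Of 12 members 5 rose and none fell, and only TAP1 and ERAP2 were kept. The chaperones CALR (-0.04 ± 0.11) and CANX (-0.07 ± 0.13) were not called.

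Transcription factors of the immediate early type had 6 rises in 15 members and a median of 0.38. JUNB stood at 31.6, 25.6 and 27.0 FPKM in SG and 75.4, 65.3 and 76.3 FPKM in TNFSG and rose by 1.34 ± 0.10. KLF6 stood at 10.8, 9.73 and 10.5 FPKM in SG and 27.9, 26.1 and 28.7 FPKM in TNFSG and rose by 1.33 ± 0.16. BTG2, an antiproliferative gene, stood at 16.4, 16.0 and 17.5 FPKM in SG and 49.8, 41.8 and 47.9 FPKM in TNFSG and rose by 1.43 ± 0.12. All of these lay below 32 FPKM in SG. JUN and JUND were called but lost the call in each of the 6 fits, and KLF10 (0.65 ± 0.10) lost it with only SG and TNFSG in the fit (adjusted p 0.0563, limma). MAFF ran from 273.2 to 631.9 FPKM in SG and from 209.97 to 378.1 FPKM in TNFSG and was not called, nor was IER2 (0.18 ± 0.22).

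Of the kinases and growth regulators, PIM2, a survival kinase, stood at 43.7, 38.6 and 38.9 FPKM in SG and 114.9, 103.6 and 95.1 FPKM in TNFSG and rose by 1.35 ± 0.11, and PIM3 rose by 0.73 ± 0.08. MYC, at 133.1, 114.2 and 126.9 FPKM in SG and 130.5, 130.6 and 141.2 FPKM in TNFSG, changed by 0.11 ± 0.11 and was not called, and 2 of 14 members of that list rose. CCND2, cyclin D2, stood at 13.7, 12.9 and 12.3 FPKM in SG and 30.5, 32.7 and 30.3 FPKM in TNFSG and rose by 1.20 ± 0.10. It was the only kept change among 30 G1/S genes, where RFC2 lost its call in each of the 6 fits. None of 31 G2/M genes was called by limma (2 had an unadjusted p under 0.05), with a median of -0.09; PTTG1 changed by 0.11 ± 0.06 and CCNB1 by -0.16 ± 0.10. DUSP7, a phosphatase of ERK, fell by 0.79 ± 0.10 (SE) from 12.9, 12.4 and 11.97 FPKM in SG to 5.97, 7.29 and 7.09 FPKM in TNFSG, and that call was lost with only SG and TNFSG in the fit (adjusted p 0.0527, limma). DUSP5 and DUSP10 rose but lost their calls in 5 of the 6 fits each.

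**Figure D3:**
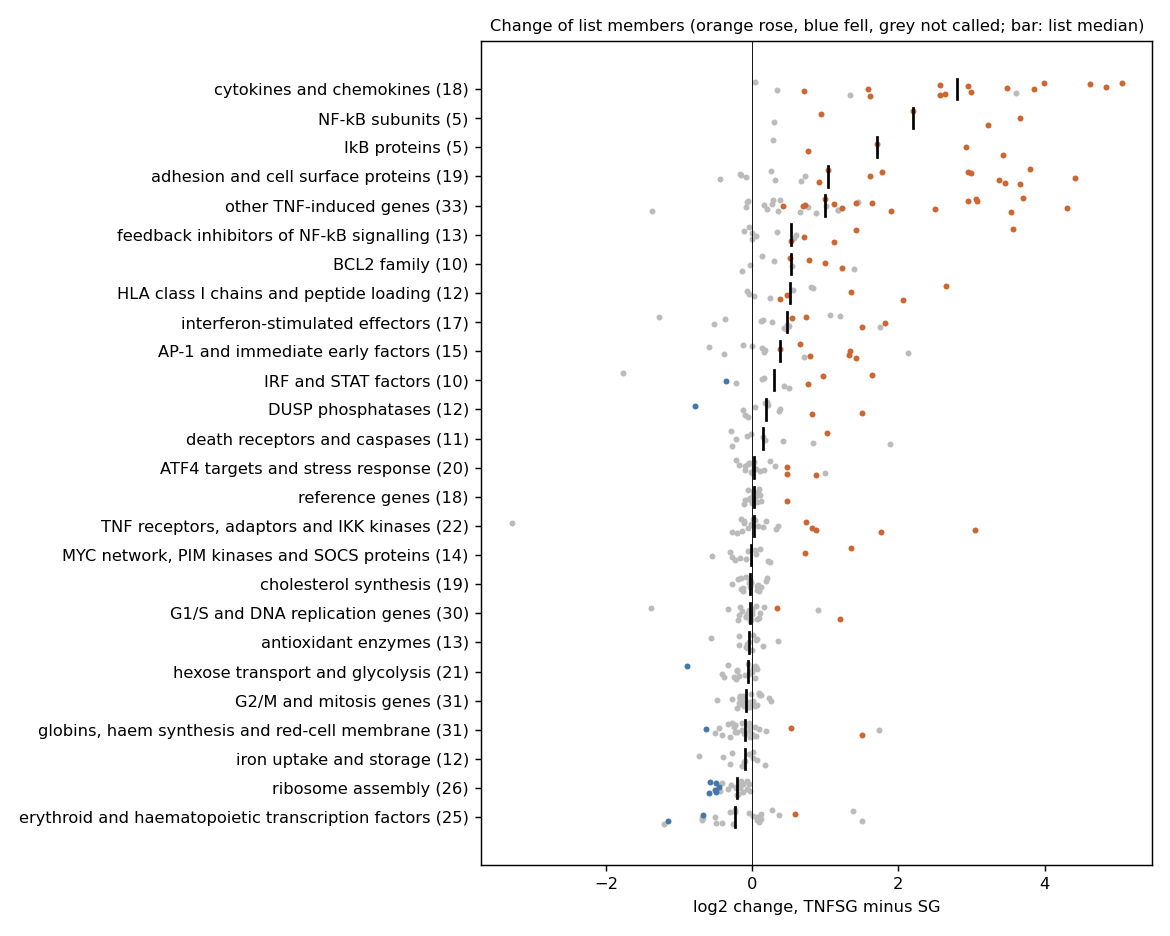
Change of the tested members of 26 gene lists. The member rule fixes part of the medians, because a gene under 5 FPKM in SG entered only by being higher in TNFSG. The x axis is the log2 change, TNFSG minus SG; each point is 1 member, orange rose, blue fell and grey not called, and the black bar is the list's median, which runs from 2.80 in cytokines and chemokines to -0.23 in erythroid and haematopoietic transcription factors; the number of members is given after each name.

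The kept falls included 1 erythroid and haematopoietic factor, NFE2, and 5 genes of ribosome assembly. NFE2, the haematopoietic subunit of the NF-E2 factor that acts at globin genes, stood at 92.9, 100.3 and 107.1 FPKM in SG and 36.2, 47.0 and 51.1 FPKM in TNFSG. Every TNFSG library was at about 51 FPKM or less and no SG library below 92. It fell by 1.16 ± 0.13 (SE) on the log2 scale (adjusted p 0.00204, limma). SLC25A38, the mitochondrial glycine carrier that feeds haem synthesis, stood at 26.3, 26.4 and 28.3 FPKM in SG and 16.0, 17.3 and 18.1 FPKM in TNFSG and fell by 0.63 ± 0.09 (SE). In the opposite direction, ALAS1, the ubiquitous first enzyme of haem synthesis, rose by 0.54 ± 0.07 from 22.4, 21.3 and 23.2 FPKM in SG to 32.7, 32.7 and 32.7 FPKM in TNFSG, and TMCC2 rose by 1.5022 ± 0.21 from 3.75, 3.46 and 3.28 FPKM in SG to 11.4, 11.99 and 11.8 FPKM in TNFSG. Of 25 erythroid and haematopoietic factors 1 rose (MYB) and 2 fell (NFE2 and RUNX1), with MYB and RUNX1 lost in 3 of the 6 fits each, and the median was -0.23. At an unadjusted p under 0.05 (limma) 8 of these factors were lower and 5 higher. GATA1, at 136.5, 118.6 and 120.4 FPKM in SG and 102.7, 108.8 and 105.3 FPKM in TNFSG, was lower in each TNFSG library but not called (-0.24 ± 0.07, adjusted p 0.140, limma). HBZ, the embryonic zeta globin, stood at 298.6, 483.1 and 758.1 FPKM in SG and 268.4, 473.0 and 791.3 FPKM in TNFSG. Its values climbed with the replicate number in both groups. GFI1B ran from 185.2 to 425.3 and from 195.7 to 514.1 FPKM, so that neither separated the groups.

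All 26 ribosome assembly members had lower means in TNFSG, with a median of -0.21; 6 fell, none rose, and 5 of the falls were kept. Over all tested members 0.621% fell. NOP2, an rRNA methyltransferase, stood at 50.0, 49.3 and 51.3 FPKM in SG and 32.3, 33.0 and 33.9 FPKM in TNFSG and fell by 0.59 ± 0.06 (SE; adjusted p 6.58e-04, limma). POLR1B, a large subunit of RNA polymerase I, stood at 22.3, 19.7 and 21.3 FPKM in SG and 14.1, 14.7 and 14.9 FPKM in TNFSG and POLR1C, a subunit shared by polymerases I and III, at 37.3, 35.6 and 36.5 FPKM in SG and 26.0, 25.6 and 25.3 FPKM in TNFSG. UBTF, the factor that marks active rRNA genes, stood at 30.9, 28.7 and 29.2 FPKM in SG and 20.4, 21.5 and 20.5 FPKM in TNFSG and RRP1B at 32.2, 28.7 and 30.4 FPKM in SG and 22.4, 21.3 and 22.3 FPKM in TNFSG. The groups did not overlap in any of these genes, and the falls were 0.51, 0.49, 0.49 and 0.45 on the log2 scale, in that order. With only SG and TNFSG in the fit, the calls of POLR1B (adjusted p 0.0659, limma) and RRP1B (adjusted p 0.0691, limma) were lost. The abundant nucleolar genes NPM1 (-0.05 ± 0.14) and NCL (-0.16 ± 0.14) were not called.

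**Figure D4:**
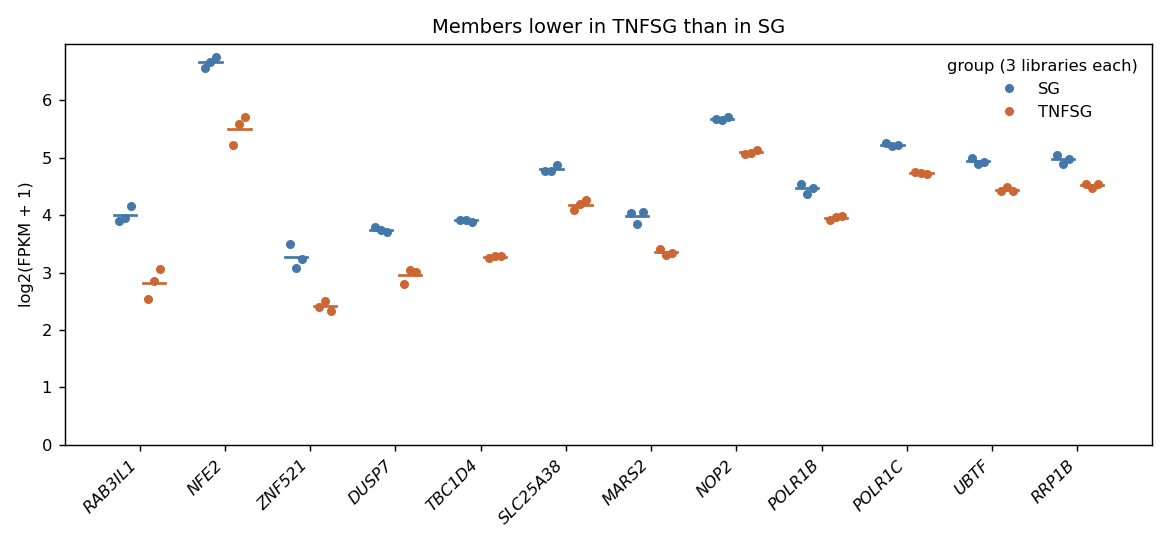
Level in each library of 12 members with a kept fall. The y axis is log2(FPKM + 1), blue points are the 3 SG libraries, orange points the 3 TNFSG libraries and bars are group means; in every gene shown all TNFSG values lie below all SG values, with the widest steps in RAB3IL1 and NFE2.

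The other large falls not marked as resting on few reads were those of RAB3IL1, a Rab exchange factor (13.99, 14.5 and 16.8 FPKM in SG and 4.79, 6.21 and 7.32 FPKM in TNFSG), and ZNF521, a zinc finger factor of haematopoietic progenitors (10.2, 7.44 and 8.41 FPKM in SG and 4.28, 4.65 and 4.03 FPKM in TNFSG). Their changes were -1.19 ± 0.17 and -0.86 ± 0.13. TBC1D4, a Rab GTPase-activating protein of glucose transport, stood at 14.1, 14.2 and 13.8 FPKM in SG and 8.58, 8.72 and 8.73 FPKM in TNFSG and fell by 0.63 ± 0.08 (SE). MARS2, the mitochondrial methionyl-tRNA synthetase, changed by -0.63 ± 0.09, ZNF696 by -0.62 ± 0.09, and the loci CTC-246B18.8 and RP11-265D17.2 by -0.88 ± 0.11 and -0.59 ± 0.09. With only SG and TNFSG in the fit, the calls of RAB3IL1, ZNF521, MARS2, ZNF696, CTC-246B18.8 and RP11-265D17.2 were lost, at adjusted p of 0.0591, 0.0933, 0.0646, 0.0809, 0.0539 and 0.0590 (limma). The calls of NFE2, SLC25A38, TBC1D4 and NOP2 were kept there.

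Few metabolic and reference genes were called. Of 21 genes of hexose transport and glycolysis only HK2, hexokinase 2, was called, lower at 20.8, 15.2 and 17.9 FPKM in SG and 8.88, 9.03 and 9.64 FPKM in TNFSG, and that call was lost in each of the 6 fits. None of 12 iron genes, 13 antioxidant enzymes or 19 cholesterol synthesis genes was called by limma, and 4, 5 and 0 of them had an unadjusted p under 0.05. The 4 iron genes were all lower, and of the antioxidant enzymes 2 were higher and 3 lower. Among the hexose and glycolysis genes 4 had an unadjusted p under 0.05 (limma), all lower. Members not called include FTL (0.06 ± 0.09), PRDX1 (-0.07 ± 0.08), TXN (0.02 ± 0.12), FDPS (0.09 ± 0.07), FDFT1 (-0.15 ± 0.14), GAPDH (0.002 ± 0.07) and ENO1 (0.04 ± 0.09). The stress genes SESN2, PPP1R15A and GADD45A rose among 20 members, but lost the call in 6, 5 and 1 of the 6 fits, and DDIT4, higher at 96.6, 93.2 and 111.0 FPKM in SG and 196.2, 165.9 and 246.4 FPKM in TNFSG, was not called (adjusted p 0.0736, limma). Of 18 reference genes B2M alone was called.

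Several large rises lay outside all lists, and they are described after their values were seen. Of 47 kept rises of at least 2 among symbols with 1 name, 33 were on a list, 3 rested on few reads and 11 were other genes. IRAK2, a kinase of the Toll-like and interleukin 1 receptor pathways, stood at 2.22, 1.31 and 1.52 FPKM in SG and 20.2, 17.3 and 21.6 FPKM in TNFSG and rose by 2.96 ± 0.15. IKBKE, an IKK-related kinase, stood at 3.53, 3.52 and 3.99 FPKM in SG and 31.1, 26.9 and 26.8 FPKM in TNFSG and rose by 2.64 ± 0.13. TIFA, an adaptor that binds TRAF6, stood at 1.18, 1.32 and 1.14 FPKM in SG and 14.3, 11.8 and 11.7 FPKM in TNFSG and rose by 2.61 ± 0.16. Each of these signalling genes was below 4 FPKM in every SG library and above 11 FPKM in every TNFSG library. CLIP2, a microtubule-binding protein, stood at 3.77, 1.75 and 1.30 FPKM in SG and 41.0, 27.9 and 26.1 FPKM in TNFSG and rose by 3.36 ± 0.31. EFNA1, an ephrin ligand, stood at 6.83, 6.17 and 5.61 FPKM in SG and 39.0, 53.3 and 51.5 FPKM in TNFSG and rose by 2.75 ± 0.21. CYP3A5, a drug-metabolising cytochrome P450, stood at 15.7, 24.4 and 23.2 FPKM in SG and 116.7, 139.2 and 148.8 FPKM in TNFSG at its main locus and rose by 2.64 ± 0.23. It was called on 6 loci of the table, with rises from 1.93 to 2.83. KREMEN2 (2.41 ± 0.15), ACHE, acetylcholinesterase (2.24 ± 0.20), FSTL3 (2.23 ± 0.29, adjusted p 0.0564 with only SG and TNFSG in the limma fit), TUBAL3 (2.11 ± 0.19) and RP11-356I2.4 (2.22 ± 0.18) complete the set.

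Some rising genes were neighbours in the genome. By GENCODE release 29 positions, 39 of 249 protein-coding risers (15.7%) had another riser within 100 kb, whereas 530 of 8671 protein-coding members tested (6.11%) had a riser at that distance. The pairs include BIRC3 with BIRC2, CXCL3 with CXCL2, and CXCL10 with CXCL11. Some are overlapping genes, such as TAPBPL with VAMP1 and KREMEN2 with PKMYT1, whose reads cannot be told apart because no strand is stated in the sources used here. These shares are a description and were not tested.

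The TNF response of the targeted cells was next set beside that of the mock-transfected cells, from other libraries. All 179 kept rises were also higher with TNF in the mock transfection, with medians of 1.33 and 1.35, and 169 of them differed by less than 0.5 between the transfections. The change was larger in the targeted cells for 83 of the 179 rises and for 17 of the 22 falls; these tallies were not tested. Kept calls were chosen by their change in the targeted cells, which tilts the tallies and medians toward a larger change there. Of the 22 kept falls 20 were lower in the mock transfection too, with medians of -0.60 and -0.52. ICAM1 changed by 4.41 ± 0.09 against 4.40 ± 0.09, NFKBIA by 3.43 ± 0.10 against 3.56 ± 0.10, and NFE2 by -1.16 ± 0.13 against -0.98 ± 0.13. For these genes the difference between the changes was 0.01 ± 0.12, -0.13 ± 0.14 and -0.17 ± 0.19.

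**Figure D5:**
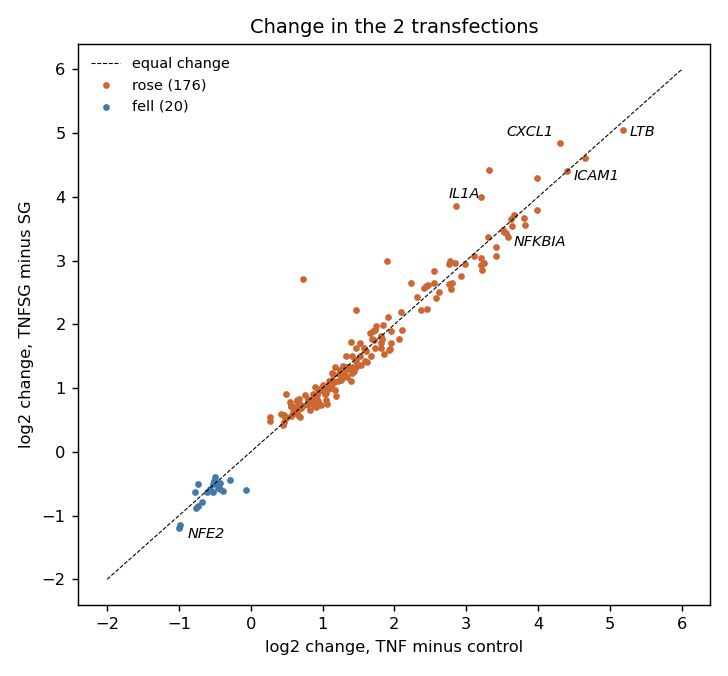
Change with TNF in the targeted transfection (y axis, TNFSG minus SG) against the mock transfection (x axis, TNF minus control), both in log2(FPKM + 1), for 176 kept rises (orange) and 20 kept falls (blue) not resting on few reads. The dashed line marks equal change, along which most points lie; IL1A lies above it at 3.86 against 2.86.

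The test of the difference itself, (TNFSG minus SG) minus (TNF minus control), called 3 of 32866 loci (0.00913%), and all 3 were members resting on few reads. SDCBPP3, a pseudogene of the adaptor SDCBP, was listed at 0 in each SG library and at 3647, 1665 and 1582 FPKM in TNFSG, from 19, 6 and 6 recovered reads. It stood at 2081, 988.9 and 881.0 FPKM in control and 2038, 759.8 and 2230.0 FPKM in TNF. AC012322.1 stood at 1041, 502.3 and 2515 FPKM in SG, from 4, 2 and 12 reads, and was listed at 0 in each TNFSG library, against 833.6, 222.8 and 1323 FPKM in control and 612.2, 684.7 and 1005 FPKM in TNF. RP4-676J13.2 stood at 29.4, 42.6 and 118.4 FPKM in SG, from 2, 3 and 10 reads, and was listed at 0 in the other 9 libraries. These FPKM are high for so few reads, and no fold is given against a group listed at 0. Their adjusted p were 0.00124, 0.0187 and 0.0218 (limma), and over 21 alternatives the call was lost 0, 5 and 11 times in the same order. C16orf96, also listed at 0 in each SG library, stood at 701.8, 434.7 and 275.4 FPKM in TNFSG from 7, 3 and 2 reads, and its difference had an adjusted p of 0.0920 (limma). PCBP3, at 0, 0 and 0 FPKM in SG and 46.0, 78.6 and 46.0 FPKM in TNFSG, rested on 11, 13 and 8 reads in TNFSG and was higher with TNF in the mock transfection too.

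Among members not marked as resting on few reads the test of the difference called none at an adjusted p of 0.05 (limma). For most of these members the number of reads is unknown. Over all 12879 tested members, those with few reads included, 345 had an unadjusted p under 0.05 (limma). That is a smaller share than 0.05, the share that exact p-values give if no response differs. Whether these p-values are exact was not tested in these libraries, so the share does not show that the responses were equal. ZNF778 had the lowest p among members not marked as resting on few reads. It stood at 18.6, 19.2 and 16.8 FPKM in SG and 14.3, 12.9 and 14.2 FPKM in TNFSG but 13.5, 14.9 and 14.2 FPKM in control and 18.9, 20.3 and 20.7 FPKM in TNF. It was lower with TNF in the targeted and higher in the mock transfection, a difference of -0.84 ± 0.11 (adjusted p 0.128, limma), and its own fall in the targeted cells lost the call in each of the 6 fits. IL1A differed by 1.00 ± 0.36, CXCL1 by 0.54 ± 0.21 and CD40 by 1.10 ± 0.59, each with an adjusted p of 1.00 (limma). TMEM50B, named after its values were seen, differed by 1.98 ± 0.52, again with an adjusted p of 1.00 (limma). The median SE of the difference over kept rises was 0.19, and a p that misses the threshold does not show that the responses were equal.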

How the data were processed

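RNA-seq of K562 was analysed from a deposited table in FPKM, the 6 SG and TNFSG libraries being compared. Reads were processed with TopHat2 2.0.14, Bowtie2 2.2.9 and Cufflinks and hg38 is the build, per the submitters' processing notes; no Cufflinks version or annotation release is named there. The authors made these FPKM, per the file headers, for assembled loci, so a symbol can stand on several loci (646 of 12089 member symbols) and 784 members carry several names, which were counted but not named singly. A symbol on several loci is represented by the locus of highest mean FPKM over the 12 libraries, loci with several names left out. Overlapping and near-identical genes cannot be separated.

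Values were taken as log2(FPKM + 1). Any locus reaching 1 FPKM in 3 or more of the 12 libraries was fitted with 1 mean per group in limma 3.58.1 (R 4.3.3; lmFit, contrasts.fit, eBayes with a trend), two-sided. Total depth is unknown. Reads were recovered where values stepped in whole reads (tolerance 0.03) for 18959 of 37850 loci, mostly weak ones. Of the 12960 members 1900 had recovered reads, and those averaging under 10 reads are said to rest on few reads. All other members count as not resting on few reads. Where no reads were recovered, their number is unknown. The labels number the replicates without saying that they are separate cultures, so p-values measure the spread between these libraries only.

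Named were all NF-kB subunit and IkB genes, in each other list up to 5 rises and 3 falls of lowest p among kept calls and the 2 uncalled members of highest FPKM, the 12 largest kept rises and falls over all members, and the 5 members of lowest p for the difference of responses. A gene that this rule takes is not reported here. Named after their values were seen were the calls lost without a library, the other kept list genes (CXCL2, EBI3, CCL2, IL32, CSF1, TNFSF10, TNFRSF4, CD69, CD40, CD58, B4GALT1, POLR1B and RRP1B), COL1A2, HBG1, HBG2, KRT19, TMEM50B, the neighbour pairs and the genes outside the lists. The members and lists were chosen with earlier results of these data known. The fit was tested on simulated data. Promoter windows are from RefSeq and gene types from GENCODE release 29. Alternatives were a replicate block, other pseudocounts, filters, scalings and variance settings, a fit of SG and TNFSG alone, and omission of each library in turn.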

Additional observations from a re-analysis of the deposited data

Results flagged for a closer look

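The TNF response differed between the targeted and the mock transfection, by the interaction term in limma, for 3 members. The difference of the log2 changes was 10.74 for SDCBPP3 (adjusted p 0.00124), -10.36 for AC012322.1 (adjusted p 0.0187) and -5.76 for RP4-676J13.2 (adjusted p 0.0218). Each averaged under 10 recovered reads over the 12 libraries (5.58, 3.17 and 1.25 reads) and was listed at 0 in all 3 libraries of SG or of TNFSG. Over 21 alternatives SDCBPP3 kept the call (adjusted p at most 0.011). AC012322.1 lost it in 5, without TNF replicate 1 or 3, SG replicate 1, or TNFSG replicate 2 or 3 (adjusted p up to 0.0991). RP4-676J13.2 lost it in 11, under the replicate block (adjusted p 0.128), with a filter at a mean of 5 FPKM, and without any 1 control, TNF or TNFSG library. These fitted values depend on the pseudocount and are no bounds on a fold.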

How the results depend on the processing

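With the replicate number as a block (replicate block), 456 members rose and 174 fell, sharing 300 and 73 with the calls reported, and 2 members differed in response. Deviations of same-numbered SG and TNFSG libraries correlated at 0.057, 0.003 and -0.004, and the fit reported does not use the number. Some genes followed the number: HBZ was lowest in replicate 1 and highest in replicate 3 in every group. The labels do not say whether same-numbered libraries belong together, and these correlations do not decide it. With only SG and TNFSG in the fit 185 rose and 20 fell, of which 170 and 12 were among the calls reported. A filter at a mean of 5 FPKM gave 159 falls and limma without the trend 36. A pseudocount of 0.1 gave 7 differences in response. Leaving out 1 library at a time gave 199 to 233 rises, 33 to 45 falls and 1 to 5 differences in response; the cause of these shifts was not tested. Of 1982 values for the 124 genes taken by the naming rule under the alternatives, 1945 kept direction and side of the threshold, 27 lost the call (16 of them with only SG and TNFSG in the fit), 10 gained one and 0 reversed. The naming rule took most called genes only if they passed in the 6 fits without a library. For those genes this part of the count was fixed in advance. Median-ratio scaling and quantile normalization moved the median member change to -0.01 and -0.03 from -0.04. Few reads limit the weakest members: 1617 tested members averaged under 10 recovered reads.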
